A study of Mus musculus with 12 samples.

Results

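The genes described here are 42 genes of the G2 phase and mitosis, taken by symbol from a list and read in bulk RNA of mouse lung tumours. The table of counts held 45777 genes, of which 17885 had enough reads to be tested. The 42 genes were all in the table and all passed that filter, with 450 to 22343 counts per gene and library. The 42 were chosen by name and not by their values, but with earlier results of these libraries known.

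The tumours came from 393P cells, a mouse lung cancer line, injected under the skin of male 129S2/SvPasCrl mice aged 8 weeks, and were compared in 4 groups of 3 libraries. In the knockout groups the injected cells lacked MAVS, and in the other groups they are labelled as MAVS reconstituted, without a description of how MAVS was put back or whether the line was a clone. Control tumours, whose titles carry "Veh", were set against tumours of mice given the MPS1 inhibitor BAY-1217389 at 5 mg/kg, 2 times daily for 2 days, with the tumours taken on the next day. The genotype belongs to the injected cells, so that the host cells in every tumour carry their own Mavs, and "Luc" in the titles of the knockout samples is not explained in the labels. The labels call the libraries replicates without saying that each is a separate animal, and the p-values then speak only of the spread between the libraries. In RNA from whole tumours, fewer dividing cells and less RNA per cell cannot be told apart.

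MPS1, the product of Ttk, is a kinase of the spindle assembly checkpoint, which holds a cell in mitosis until each chromosome is attached to the spindle. Blocking it lets cells leave mitosis early with chromosomes unevenly shared. MAVS is the adaptor at the mitochondrial surface through which the RNA sensors RIG-I and MDA5 switch on interferon genes. Genes of G2 and mitosis are transcribed late in the cell cycle by B-MYB and FOXM1 bound to the MuvB core, and in resting cells the DREAM complex holds them down through the same core. Their summed level in a tissue follows the share of cells that are cycling, and Mki67 protein is the usual stain for such cells.

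Short sequences recur in most of the promoters of these genes, though not in all. Of the 42 genes, 35 have an entry in the RefSeq promoter table of GRCm38.p6, which holds 250 bases before to 50 bases after the start of transcription of 27025 genes. The genes without an entry are Dlgap5, Ccna2, Incenp, Cdc25c, Foxm1, Tpx2 and Kif20a. The cell cycle homology region (CHR), searched as TTTGAA or TTCGAA on both strands, is the element at which the MuvB core binds DNA, and CCAAT, searched on both strands, is the element of NF-Y. Matches to both words were allowed to overlap. A CHR match was present in 28 of the 35 promoters (80.0%), against 19.4% of all genes in the table and 8 of 32 S phase genes (25.0%). Within 50 bases of the start the CHR word occurred in 25 of 35 (71.4%), against 5.29% of all genes and 12.5% of the S phase genes. CCAAT was found in 26 of 35 (74.3%), against 37.9% of all genes and 53.1% of the S phase genes. Both words together were found in 23 of 35 (65.7%), against 7.70% and 15.6%. Birc5, Kif18a, Nuf2 and Nusap1 had neither word, and Ccnb1, Cenpe and Nek2 had CCAAT without CHR. The pattern is not particular to the 42: among 56 promoters of other mitosis genes, 67.9% had CHR, 62.5% CCAAT and 48.2% both. Such a match is only a string of letters in this window, and no binding was measured here. The 4 promoters below are shown because Plk1 has a single CCAAT and a single CHR, Mki67 and Kif15 had opposed values in the 2 genotypes, and Cenpa had the other direction in reconstituted tumours. They are written 5′ to 3′ on the strand of the gene, with CHR matches (TTTGAA, or TTCAAA for the other strand) and CCAAT matches (or ATTGG) in capitals. Plk1 lies at chr7:122159185-122159484 on the plus strand, Mki67 at chr7:135716330-135716629 on the minus strand, Kif15 at chr9:122950831-122951130 on the plus strand and Cenpa at chr5:30666636-30666935 on the plus strand.
Plk1: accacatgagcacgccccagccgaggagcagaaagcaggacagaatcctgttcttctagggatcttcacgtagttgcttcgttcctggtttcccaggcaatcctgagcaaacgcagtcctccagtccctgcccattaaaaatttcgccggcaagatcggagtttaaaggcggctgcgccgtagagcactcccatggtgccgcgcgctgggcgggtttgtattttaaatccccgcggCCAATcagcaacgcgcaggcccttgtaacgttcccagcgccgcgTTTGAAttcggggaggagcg
Mki67: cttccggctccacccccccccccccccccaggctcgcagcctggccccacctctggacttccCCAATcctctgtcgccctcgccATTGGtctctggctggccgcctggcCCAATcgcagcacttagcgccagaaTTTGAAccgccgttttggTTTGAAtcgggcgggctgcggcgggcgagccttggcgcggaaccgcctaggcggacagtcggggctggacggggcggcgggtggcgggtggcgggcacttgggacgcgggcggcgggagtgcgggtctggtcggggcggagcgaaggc
Kif15: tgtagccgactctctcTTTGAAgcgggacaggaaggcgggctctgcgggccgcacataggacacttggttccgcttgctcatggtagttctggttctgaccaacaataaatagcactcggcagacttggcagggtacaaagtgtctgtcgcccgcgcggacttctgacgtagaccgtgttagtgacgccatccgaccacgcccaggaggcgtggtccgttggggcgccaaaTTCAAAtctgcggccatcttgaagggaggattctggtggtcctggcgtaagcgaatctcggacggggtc
Cenpa: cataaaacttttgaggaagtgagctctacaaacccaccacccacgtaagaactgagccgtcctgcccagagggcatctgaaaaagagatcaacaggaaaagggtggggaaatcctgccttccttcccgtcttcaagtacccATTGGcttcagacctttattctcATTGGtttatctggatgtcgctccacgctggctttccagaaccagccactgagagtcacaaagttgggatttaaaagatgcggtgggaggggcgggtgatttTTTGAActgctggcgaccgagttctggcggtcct
In the Plk1 promoter the CHR begins 31 bases after the start and the CCAAT begins 14 bases before it. The Mki67 promoter holds 2 CHR matches, beginning 116 and 98 bases before the start, with 3 CCAAT matches upstream of them. Kif15 has 2 CHR matches, 234 to 229 bases before the start and, on the other strand, 19 to 14 bases before it. It has no CCAAT match. Cenpa has a CHR match beginning 17 bases after the start and 2 CCAAT matches on the other strand.

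Total counts ran from 52983715 to 69108411 per library, and levels are given as CPM, for which each count was divided by its library total and a TMM factor of 0.920 to 1.03. Mavs, which checks the genotype labels, had 39.4 to 45.7 CPM in the 6 knockout libraries and 50.1 to 85.1 CPM in the 6 reconstituted ones, with no overlap. The order of the groups matches the labels, but the counts do not measure the loss of MAVS in the injected cells. Reconstituted inhibitor libraries 1 and 2 stood apart from the rest in all genes: long transcripts were low and short ones high. The slope of a gene's log2 deviation on its log2 transcript length was -0.277 and -0.167 in them, 0.150 in reconstituted control library 1 and between -0.0622 and 0.120 in the other 9. Epithelial markers of tumour cells summed to 7509 to 7924 CPM in knockout controls and 7363 to 8192 in knockout inhibitor tumours. They summed to 6397 to 6816 CPM in reconstituted controls, below the knockout controls without overlap, and to 6937 to 10131 in reconstituted inhibitor tumours. Of the 8 genes listed, Cldn7 had 0 counts. The medians of the 42 genes in the comparisons that use reconstituted inhibitor libraries 1 and 2 are given below with and without them; single genes, correlations with length and markers are given with them.

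Levels between genes were compared per length, as mean CPM over the 12 libraries divided by the length of the transcript in kb. The median over the 42 genes was 20.3 CPM per kb. Ube2c, the ubiquitin-conjugating enzyme of the anaphase-promoting complex, was highest at 121 CPM per kb, followed by Top2a at 53.7, the cytokinesis gene Racgap1 at 49.9 and the S and G2 cyclin gene Ccna2 at 43.0. At the low end were the kinesin genes Kif14 at 1.75, Kif18a at 3.77 and Kif15 at 4.21 CPM per kb. The ratio of the highest to the lowest library ran from 1.17 for Ndc80 and 1.19 for Cdca8 to 2.20 for Cenpf, 2.27 for Mki67 and 2.67 for Kif20b. Ube2c, the shortest transcript at 967 bases, had a ratio of 1.95.

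**Figure D1:**
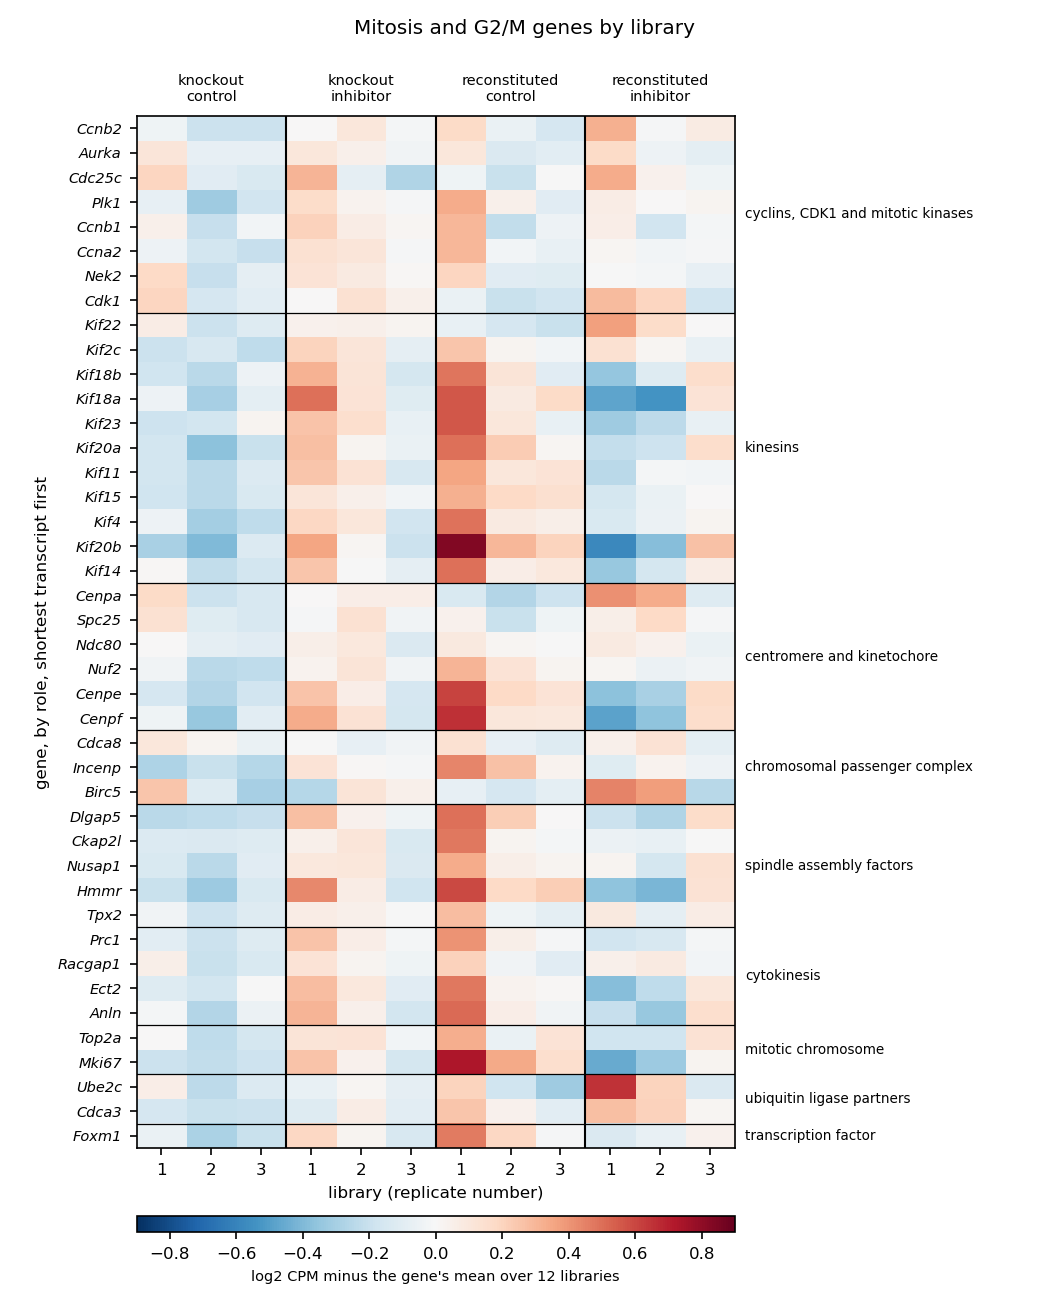
Each cell is the log2 CPM of a gene in a library minus the gene's mean over the 12 libraries (red above, blue below), with genes grouped by role and ordered by transcript length within a role. Reconstituted control library 1 is red in nearly every row, and reconstituted inhibitor libraries 1 and 2 are blue for long transcripts and red for short ones.

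Among the 8 regulators of entry into mitosis, inhibitor and control libraries of reconstituted tumours overlapped for all 8. Of all genes, 14.7% lay apart above and 14.8% below in that comparison. In knockout tumours Ccna2, Ccnb2 and Plk1 had each inhibitor library above each control (3 of 8, against 4.47% of all genes). Cdk1, the kinase that drives mitosis, had 121, 94.8 and 98.7 CPM in knockout control libraries 1, 2 and 3 and 105, 116 and 109 in knockout inhibitor libraries. It had 101, 91.7 and 93.2 CPM in the reconstituted control libraries and 128, 120.4 and 93.2 in the reconstituted inhibitor libraries, where libraries 1 and 2 were high and library 3 equalled a control. Its partner Ccnb1, cyclin B1, had 76.8, 64.5 and 73.4 CPM in knockout controls, 86.3, 78.1 and 75.5 in knockout inhibitor tumours, 91.9, 63.8 and 72.4 in reconstituted controls and 77.8, 66.1 and 73.7 in reconstituted inhibitor tumours. The groups of Ccnb1 overlapped in both genotypes. Plk1, the polo kinase that acts from mitotic entry to cytokinesis, had 44.4, 37.4 and 41.5 CPM in knockout controls and 52.2, 47.6 and 46.4 in knockout inhibitor tumours. The knockout groups of Plk1 did not overlap, whereas its reconstituted controls (58.9, 48.2 and 43.6 CPM) enclosed the reconstituted inhibitor libraries (48.9, 46.8 and 47.5 CPM). The other regulators were Ccna2, Ccnb2 (cyclin B2), Aurka (the centrosomal Aurora kinase), Nek2 (a kinase of centrosome separation) and Cdc25c (a phosphatase that activates CDK1). They ranged from 9.10 CPM for Cdc25c to 156 CPM for Ccna2 over the libraries.

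Of the mitotic chromosome genes and the transcription factor of the group, only Mki67 lay apart without overlap in both genotypes. Mki67, which coats mitotic chromosomes and keeps them apart, had 204, 200.01 and 205 CPM in knockout controls and 279, 240.0 and 209.6 in knockout inhibitor tumours, so that each treated library lay above each control. In reconstituted tumours the order was turned, with 387, 296 and 259.6 CPM in controls and 170.2, 186 and 237 under the inhibitor, again without overlap. Top2a, the topoisomerase that untangles sister chromatids, had 279.5, 238 and 249 CPM in knockout controls, 303, 303 and 274 in knockout inhibitor tumours, 349, 268 and 304 in reconstituted controls and 247, 246 and 305 in reconstituted inhibitor tumours. Its groups overlapped in both genotypes. Foxm1, the activator of G2 genes, had 68.4, 58.6 and 62.0 CPM in knockout controls and 81.1, 72.7 and 64.6 in knockout inhibitor tumours. In reconstituted tumours Foxm1 had 98.9, 81.3 and 71.0 CPM in controls and 65.2, 68.0 and 73.3 under the inhibitor, and library 3 of each group lay in the range of the other.

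Motors and their partners included the other genes with opposed values. Kif15, a kinesin that helps keep the spindle bipolar, had 17.9, 17.1 and 18.4 CPM in knockout controls and 21.9, 21.0 and 20.0 in knockout inhibitor tumours. In reconstituted tumours it had 25.4, 23.0 and 22.4 CPM in controls and 18.2, 19.4 and 20.3 under the inhibitor. Incenp, the scaffold of the chromosomal passenger complex that carries Aurora B, had 65.9, 69.7 and 66.8 CPM in knockout controls and 87.1, 80.5 and 79.5 in knockout inhibitor tumours. With MAVS reconstituted, Incenp had 109, 95.9 and 81.6 CPM in controls and 74.1, 81.6 and 77.3 under the inhibitor, the nearest pair being 81.6 on both sides after rounding. Prc1, which bundles the microtubules of the spindle midzone, had 117, 109 and 115 CPM in knockout controls and 149, 129.8 and 123 in knockout inhibitor tumours, against 165, 129 and 124 in reconstituted controls and 111, 113 and 123 in reconstituted inhibitor tumours. Kif15, Incenp, Prc1 and Mki67 were the 4 of 42 genes in which all 3 inhibitor libraries lay above the controls in knockout tumours and below them in reconstituted tumours. Among all genes tested this order was found for 0.995%.

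The short transcripts Cenpa and Ube2c went the other way in reconstituted tumours. Cenpa, the histone H3 variant that marks the centromere, had 50.3, 39.0 and 40.4 CPM in knockout controls and 44.6, 46.5 and 46.4 in knockout inhibitor tumours. In reconstituted tumours it had 40.5, 37.1 and 39.2 CPM in controls and 59.4, 56.2 and 41.1 under the inhibitor, with library 3 only just above the controls. Ube2c had 133, 102 and 92.3 CPM in reconstituted controls and 180.5, 133 and 105 under the inhibitor, which overlapped, and 98.1 to 120.2 CPM in the knockout tumours.

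**Figure D2:**
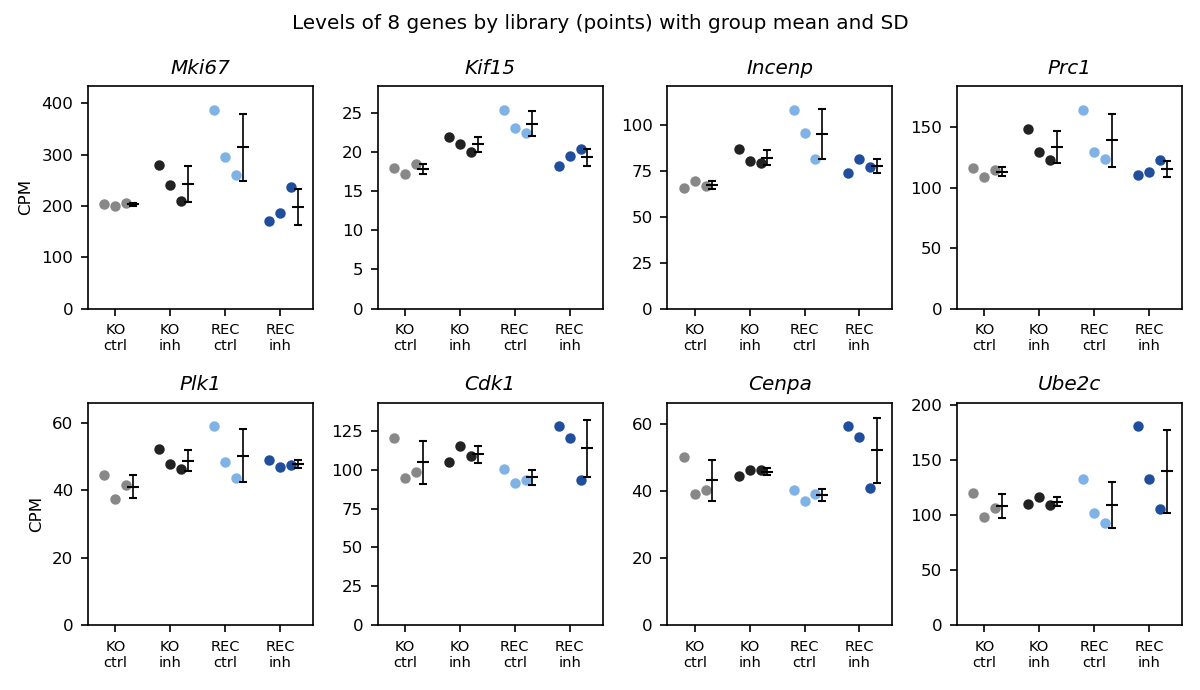
CPM of 8 genes in each library (points) with the group mean and SD (n = 3), for knockout (KO) and reconstituted (REC) tumours under control (ctrl) or inhibitor (inh). Mki67, Kif15, Incenp and Prc1 are higher with the inhibitor in knockout and lower in reconstituted tumours, while Cenpa is highest in reconstituted inhibitor libraries 1 and 2 and Ube2c in library 1.

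In knockout tumours the inhibitor went with slightly higher values across the group, none of which passed the test. The median log2 difference, inhibitor minus control, was 0.20 over the 42 genes and -0.004 over all genes tested, and 41 of the 42 differences were above 0 (48.9% of all genes). None of the 42 was called by edgeR's quasi-likelihood test at a Benjamini-Hochberg adjusted p below 0.05, as for all genes (0%), nor by DESeq2 or limma-voom. At an unadjusted p below 0.05, 9 of 42 were higher and 0 lower, against 0.654% and 1.05% of all genes. All 3 inhibitor libraries lay above all 3 controls for 13 genes, against 4.47% of all genes, and below them for 0 (4.25%). These were Ccna2, Ccnb2, Plk1, Kif15, Kif2c, Kif20a, Cenpe, Incenp, Tpx2, Dlgap5, Prc1, Mki67 and Cdca3.

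Within that comparison the 11 kinesins had a median difference of 0.26 and the 8 regulators of entry one of 0.13. The genes with the smallest p were Incenp, Kif15 and Kif2c, the last encoding a microtubule depolymerase that corrects faulty attachments. Their log2 differences of 0.29 (SE 0.0968), 0.23 (SE 0.0847) and 0.27 (SE 0.102) did not pass (edgeR adjusted p = 1 for each). The largest difference was 0.35 (SE 0.183) for Hmmr, a microtubule-binding spindle protein. The 1 gene below 0 was Cdca8, encoding the passenger complex subunit borealin, at -0.06 (SE 0.0914). Leaving out any 1 library kept the median of the 42 between 0.15 and 0.26.

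In reconstituted tumours the values were mostly lower with the inhibitor, again without a call. The median log2 difference was -0.19 over the 42 genes and -0.01 over all genes, with 12 of 42 above 0 (49.5% of all genes). edgeR called 0 of 42, as it did for all genes (0%), limma-voom called 0 and DESeq2 called 9, among 20.2% of all genes. At an unadjusted p below 0.05 by edgeR 16 genes were lower and 2 higher, against 15.0% and 17.6% of all genes. All 3 inhibitor libraries lay below the controls for 9 genes (14.8% of all genes) and above them for 2 (14.7%). Those below were Kif11, Kif15, Kif4, Kif23, Nuf2, Incenp, Hmmr, Prc1 and Mki67, and those above were Kif22 and Cenpa.

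The kinesins accounted for 7 of the 16 lower genes at an unadjusted p below 0.05, with a median of -0.29 over the 11. The 8 regulators of entry contributed none and had a median of 0.01. Kinesin transcripts, at 2115 to 8943 bases, tended to be longer than those of the regulators, at 1531 to 4375 bases. Role was therefore not tested apart from transcript length in any comparison. With the length trend removed, as described below, the kinesins ran from -0.48 (Kif18a) to 0.21 (Kif22). The regulators then ran from -0.17 (Plk1) to 0.46 (Cdk1). Mki67 had the smallest p, at a log2 difference of -0.67 (SE 0.163, edgeR adjusted p = 0.0729), followed by Kif15 at -0.29 (SE 0.0846, adjusted p = 0.0733). The third, Kif22, a motor on chromosome arms, was higher by 0.33 (SE 0.0999, adjusted p = 0.0749), with 43.4, 41.0 and 39.6 CPM in controls and 58.8, 51.0 and 45.6 under the inhibitor. Kif20b, a kinesin of late cytokinesis, had a difference as large as that of Mki67 at -0.66 (SE 0.232). Its inhibitor libraries 1 and 2 had 24.6 and 28.1 CPM and library 3 had 44.1, against 65.5, 45.2 and 42.3 in controls, so the groups overlapped. Other genes lower at an unadjusted p below 0.05 by edgeR included Hmmr at -0.54, Cenpf, an outer kinetochore protein, at -0.51 and Cenpe, the kinetochore motor, at -0.46. Besides Kif22, the gene higher at that threshold was Cenpa, at 0.42.

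The reconstituted comparison depended on single libraries. Without reconstituted control library 1 the median of the 42 was -0.07, with 19 of 42 above 0. Without inhibitor libraries 1 and 2 together, an alternative chosen after seeing the data, it was -0.09, and the lone inhibitor library left was assumed to vary like the other groups. Without inhibitor library 3, edgeR called 17 of the 42 (12 lower and 5 higher), among 31.0% of all genes. Those higher were Cdk1, Kif22, Cenpa, Birc5 (survivin, of the passenger complex) and Ube2c.

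The difference between the genotypes in the inhibitor's effect was tested as the interaction, reconstituted minus knockout. Its median was -0.37 over the 42 genes and 0.005 over all genes, with 9 of 42 above 0 (50.3% of all genes). edgeR called 0 of 42 (0% of all genes), limma-voom 0 and DESeq2 12, among 7.52% of all genes. By edgeR 20 of 42 were lower at an unadjusted p below 0.05 and 0 higher, against 11.1% and 13.6% of all genes. The kinesins, whose transcripts tend to be long, held 9 of these 20, and role was not tested apart from length. Kif15 at -0.52 (SE 0.120), Incenp at -0.58 (SE 0.137) and Mki67 at -0.93 (SE 0.229) had the smallest p, each at an edgeR adjusted p = 0.144. The values ranged from -1.0 (SE 0.328) for Kif20b to 0.34 (SE 0.190) for Cenpa. Without reconstituted control library 1 the median was -0.27, and without reconstituted inhibitor libraries 1 and 2 it was -0.29. Without reconstituted inhibitor library 3, 17 of 42 were called, among 21.9% of all genes.

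The genotypes were then compared under each treatment. In control tumours values were higher in reconstituted than in knockout tumours, with a median log2 difference of 0.29 over the 42 genes and 0.003 over all genes. The difference was above 0 for 34 of 42 (50.4% of all genes). edgeR called 0 of 42, against 0.140% of all genes, limma-voom called 0 and DESeq2 called 8, among 4.62% of all genes. At an unadjusted p below 0.05 by edgeR 22 genes were higher and 0 lower, against 8.85% and 9.89% of all genes. All 3 reconstituted libraries lay above the 3 knockout libraries for 21 genes, 8 of them kinesins, against 15.6% of all genes, and below them for 0 (15.5%). This comparison shares its reconstituted control libraries with that of the inhibitor in reconstituted tumours, and its knockout controls with that in knockout tumours.

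Incenp had the smallest p at a log2 difference of 0.50 (SE 0.0969, edgeR adjusted p = 0.0842), followed by Kif15 at 0.40 (SE 0.0848, adjusted p = 0.105) and Mki67 at 0.63 (SE 0.162, adjusted p = 0.155). Foxm1 was higher by 0.41 (SE 0.125, adjusted p = 0.177), and all 5 spindle assembly factors were above 0 with a median of 0.30. These are Tpx2, which activates Aurora A, the microtubule binders Nusap1, Hmmr and Ckap2l, and Dlgap5, which stabilises fibres near the chromosomes. The largest difference was that of Kif20b at 0.74 (SE 0.233) and the lowest that of Cenpa at -0.15 (SE 0.135). The regulators of entry had a median of 0.06, with Cdk1 at -0.14 (SE 0.123), Ccnb1 at 0.09 (SE 0.128) and Plk1 at 0.29 (SE 0.110). Reconstituted control library 1 was the highest of the 12 libraries for 31 of the 42 genes, and for 13.7% of all genes. Without it the median fell to 0.16, with 31 of 42 above 0, and edgeR still called 0.

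Under the inhibitor the median log2 difference, reconstituted minus knockout, was -0.08 over the 42 genes and 0.01 over all genes, with 11 of 42 above 0 (51.1% of all genes), and -0.04 without reconstituted inhibitor libraries 1 and 2. edgeR called 0 of 42, against 0.649% of all genes, as did DESeq2 and limma-voom, and 0 of 42 had an unadjusted p below 0.05 by edgeR in either direction, against 10.7% of all genes higher and 8.99% lower. Only Nek2 and Kif23, a subunit of centralspindlin, had all 3 reconstituted libraries below the knockout ones, against 9.77% of all genes, and 0 had them above (10.9%). The smallest p were those of Kif18a, a kinesin that dampens chromosome oscillation, at -0.46 (SE 0.210, edgeR adjusted p = 0.259), Kif23 at -0.33 (SE 0.150, adjusted p = 0.260) and Cdca3, a partner of a ubiquitin ligase at mitotic entry, at 0.21 (SE 0.100, adjusted p = 0.265). Kif18a had 17.5, 13.5 and 11.5 CPM in knockout and 8.89, 8.54 and 13.5 in reconstituted inhibitor tumours, and without reconstituted inhibitor library 3 it was called at -0.71 (edgeR adjusted p = 0.0393), among 15.4% of all genes.

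Averaged over the other factor, the medians were 0.13 for MAVS and 0.05 for the inhibitor without reconstituted inhibitor libraries 1 and 2. With all 12 libraries the median for MAVS was 0.08, with 37 of 42 above 0 (50.1% of all genes) and 0 called by edgeR (1.56% of all genes), DESeq2 or limma-voom. Cdca3 at 0.23 (SE 0.0710, edgeR adjusted p = 0.139), Incenp at 0.21 (SE 0.0684, adjusted p = 0.175) and Kif15 at 0.14 (SE 0.0598, adjusted p = 0.286) were the 3 with an unadjusted p below 0.05, all higher (8.12% of all genes), and 0 were lower (6.97%). For the inhibitor the median was -0.003, with 20 of 42 above 0 (49.3% of all genes) and 0 called by edgeR (0% of all genes), DESeq2 or limma-voom. The smallest p were those of Kif22 at 0.22 (SE 0.0706), Cenpa at 0.25 (SE 0.0951) and Ccnb2 at 0.16 (SE 0.0763), each at an edgeR adjusted p = 0.522. Kif22 and Cenpa were the only ones of the 42 with an unadjusted p below 0.05, both higher (4.13% of all genes), and 0 were lower (3.70%).

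**Figure D3:**
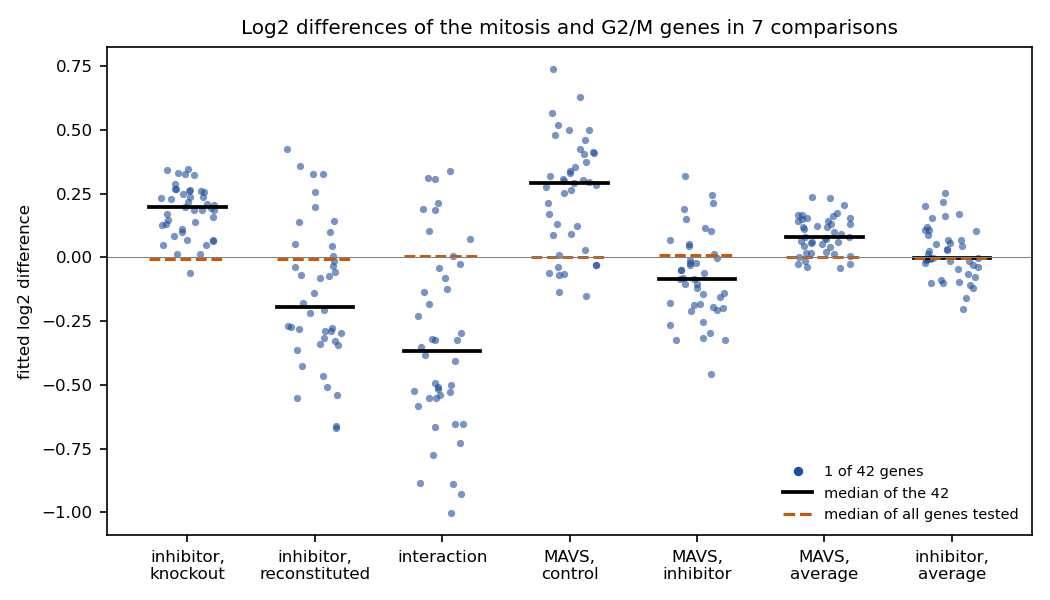
Fitted log2 difference (y axis) of each of the 42 genes (points) in the 7 comparisons, with the median of the 42 (black) and of all genes tested (orange, dashed). The 42 lie above all genes for the inhibitor in knockout tumours and for MAVS in control tumours, and below them for the inhibitor in reconstituted tumours and for the interaction; no point passed the test.

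In 6 of the 7 comparisons the differences followed transcript length, in these genes and in all genes; for MAVS averaged over treatments the Spearman correlation was 0.27 in the 42 genes and -0.03 in all genes. Across the 42 genes the Spearman correlation of the log2 difference with transcript length was -0.74 for the inhibitor in reconstituted tumours, against -0.56 across all 14756 genes with a length. It was 0.67 for MAVS in control tumours (0.38 in all genes), -0.68 for MAVS under the inhibitor (-0.43), -0.71 for the interaction (-0.54), 0.54 for the inhibitor in knockout tumours (0.23) and -0.73 for the inhibitor averaged over genotypes (-0.50). These are correlations across genes that share the same 12 libraries, and genes are not independent replicates. Of the 42 genes 14 have transcripts over 4 kb and 8 under 2 kb.

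Set against genes of like length, the 14 long members had medians further from 0 than all long genes in the comparisons that follow. For the inhibitor in knockout tumours their median was 0.22, against 0.04 for all genes over 4 kb, and for MAVS in control tumours 0.39, against 0.13. For the inhibitor in reconstituted tumours the medians were closer, at -0.30 against -0.25, and for the interaction they were -0.53 and -0.29. The 8 short members, under 2 kb, had a median of 0.14 for the inhibitor in reconstituted tumours, where all genes under 2 kb had 0.31. No test was made of these medians.

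An alternative chosen after seeing the data removed a smooth trend on transcript length from each library before the fit. The median of the 42 was then 0.16 for the inhibitor in knockout tumours (40 of 42 above 0), -0.10 for the inhibitor in reconstituted tumours (10 of 42), 0.27 for MAVS in control tumours (36 of 42), -0.04 for MAVS under the inhibitor (18 of 42) and -0.25 for the interaction (6 of 42). edgeR called 0 of the 42 in each. For single genes in reconstituted tumours the inhibitor difference of Mki67 became -0.26 (edgeR adjusted p = 0.146). That of Kif15 became -0.06 (edgeR adjusted p = 0.672) and that of Cenpa 0.13 (edgeR adjusted p = 0.391). For Kif18a the difference after removal of the trend was -0.48 (edgeR adjusted p = 0.175). Ube2c turned from 0.36 to -0.10 (adjusted p = 0.697). The length used is that of an annotated transcript chosen for each gene, which need not be the one expressed.

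**Figure D4:**
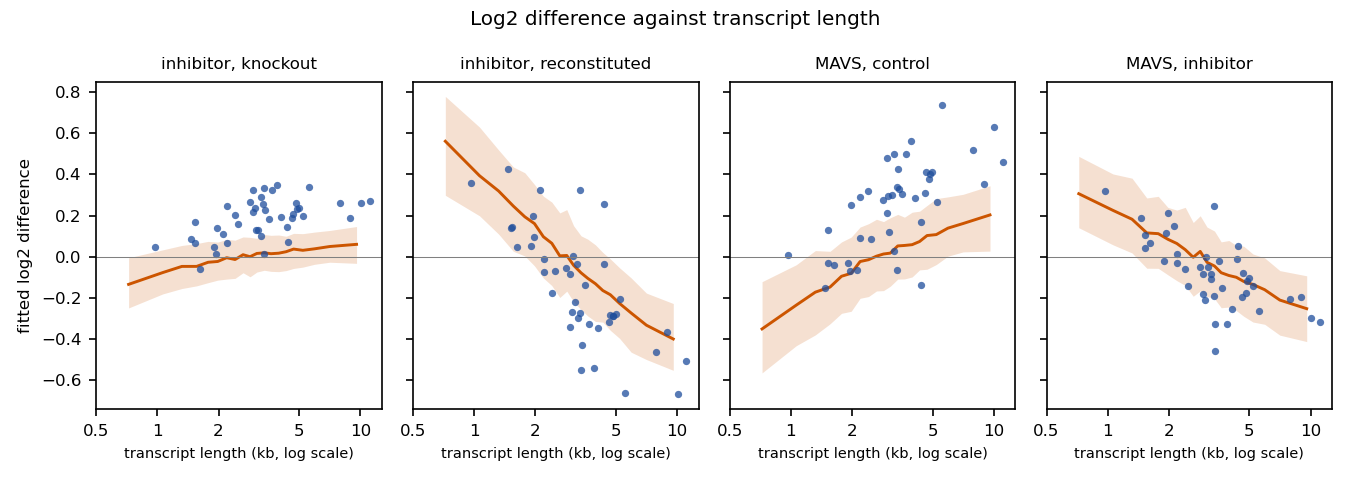
Fitted log2 difference against transcript length in kb (log axis) for the 42 genes (blue points) in 4 comparisons, with the median (orange line) and the range between the quartiles (band) of all genes tested in bins of length. For the inhibitor in reconstituted tumours most points lie along the line or below it, and for the inhibitor in knockout tumours and MAVS in control tumours they lie mostly above it.

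Other lists of cell cycle genes were also chosen with earlier results known, and in the 4 lists that follow edgeR called 0 genes in these comparisons. Of 68 other mitosis genes tested, 62 were above 0 for the inhibitor in knockout tumours (median 0.16), 23 for the inhibitor in reconstituted tumours (median -0.17), 54 for MAVS in control tumours (median 0.23) and 18 for the interaction (median -0.32). Of 40 S phase genes, which code for replication factors, 38 were above 0 for the inhibitor in knockout tumours (median 0.12), 17 for the inhibitor in reconstituted tumours (median -0.04) and 37 for MAVS in control tumours (median 0.22). The 17 subunits and activators of the anaphase-promoting complex lay near 0, at 0.01, 0.07 and -0.03 in the same 3 comparisons. The 23 genes of MuvB, DREAM, E2F and NF-Y had medians of 0.05, -0.11 and 0.14.

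Ttk itself, the target of the inhibitor, had 18.4, 15.3 and 16.3 CPM in knockout controls, 20.1, 18.1 and 17.5 in knockout inhibitor tumours, 22.5, 20.4 and 16.8 in reconstituted controls and 15.2, 18.6 and 18.8 in reconstituted inhibitor tumours. Its groups overlapped in both genotypes, and its mRNA does not measure whether the kinase was blocked. Among 18 CDK inhibitor genes and targets of p53, 1 was called by edgeR for MAVS under the inhibitor (0.649% of all genes): Plk2, a polo kinase induced by p53, was lower in reconstituted tumours by a log2 difference of -0.76 (SE 0.132, adjusted p = 0.0321). Averaged over treatments Plk2 at -0.73 (SE 0.0934, adjusted p = 0.00329) and Cdkn2b, which encodes the CDK4 and CDK6 inhibitor p15, at -0.48 (SE 0.0683, adjusted p = 0.00595) were lower in reconstituted tumours (2 of 18, against 1.56% of all genes called).

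Markers of other cell types also differed between the groups. The 8 fibroblast and pericyte markers summed to 7917 to 18038 CPM in knockout controls, 7609 to 14768 in knockout inhibitor tumours, 8538 to 9005 in reconstituted controls and 2884 to 8774 in reconstituted inhibitor tumours. The 8 cytotoxic lymphocyte markers summed to 11.4 to 35.6 CPM in knockout controls and 15.0 to 28.9 in knockout inhibitor tumours, and to 54.7 to 85.9 in reconstituted controls and 99.0 to 131 in reconstituted inhibitor tumours. Of these 8, 4 were called higher by edgeR in reconstituted tumours under the inhibitor, against 0.649% of all genes in either direction. These were Prf1, Gzmb, Gzma and Cst7, with Prf1 higher by a log2 difference of 2.72 (SE 0.461, adjusted p = 0.0316). The 5 red blood cell markers summed to 49.4 to 237 CPM in knockout controls, 59.7 to 294 in knockout inhibitor tumours, 32.5 to 53.5 in reconstituted controls and 50.6 to 112 in reconstituted inhibitor tumours. All 5 were lower in reconstituted than in knockout controls at an unadjusted p below 0.05 by edgeR, against 9.89% of all genes. Their median log2 difference was -1.85, with 0 called. The 10 T cell markers summed to 18.6 to 34.3 CPM in reconstituted controls and 32.2 to 46.9 under the inhibitor, where all 10 differences were above 0 with a median of 0.94 and 0 called. Macrophage markers, 8 in all, summed to 1287 to 1650 CPM in reconstituted controls and 1804 to 2237 under the inhibitor, without overlap. Their single differences ran from -0.40 to 0.81, with 6 of 8 above 0, a median of 0.19 and 0 called. In knockout tumours they summed to 1612 to 2174 CPM in controls and 1323 to 1749 under the inhibitor. For the inhibitor in reconstituted tumours, neutrophil and endothelial markers had medians of 0.96 and -0.31, with 0 called. Skeletal muscle markers ranged from 1.31 CPM in a reconstituted control to 2398 CPM in a reconstituted inhibitor library. Of the 7 epithelial tumour cell markers tested, 5 had all 3 reconstituted controls below the knockout controls, against 15.5% of all genes. Averaged over treatments, edgeR called 2 of these 7 lower in reconstituted tumours (smallest adjusted p = 0.0285), against 1.56% of all genes called. The part of these cell types in the values of the mitosis genes was not tested.

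By library, the mean log2 deviation of the 42 genes from their own means was highest in reconstituted control library 1, at 0.33, and lowest in knockout control library 2, at -0.21. The S phase genes had 0.21 and -0.23 in the same libraries. In the reconstituted inhibitor group the 42 genes had -0.05, -0.07 and 0.02 in libraries 1, 2 and 3, and the S phase genes 0.07, 0.18 and -0.13. Library 1 of that group was the highest of all 12 for 9 of the 42 genes and the lowest for 8. Among all genes it was the highest for 26.6% and the lowest for 23.5%. Its values of long and short members offset each other. Knockout control library 2 was the lowest of the 12 for 15 of the 42, and for 7.62% of all genes.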

How the data were processed

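Whole-number read counts per gene were deposited for 12 libraries of polyadenylated RNA. Per the submitters' processing notes, the tools were Trimmomatic, HISAT2 and StringTie on build GRCm38 (mm10); neither roles nor versions are stated. For strand, mates and shared reads, the counting rule was not given in the sources used here. Groups came from the sample labels. Genes with low counts were removed with filterByExpr, and the other 17885 were fitted with a mean for each of the 4 groups in edgeR 4.0.16 (R 4.3.3), with TMM factors and the quasi-likelihood F-test. Within a comparison, p-values were adjusted over all genes (Benjamini-Hochberg), with a call below 0.05. DESeq2 1.42.0, limma 3.58.1 (voom), other scalings and filters, a replicate block and leaving out libraries were alternatives. The code was tested on simulated data. No pair of libraries of the same group agreed within sampling noise. The lowest chi-square per gene within a group was 31.5. A transcript length from GENCODE M21 was found for 82.5% of genes tested. Transcripts paired with a curated RefSeq transcript were preferred, then coding ones, then the longest. Promoters and gene positions are RefSeq's for GRCm38.p6.

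The members and lists were chosen with earlier results of these data known. Mki67, Top2a, Ccnb1, Cdk1, Plk1, Foxm1 and Ttk were named in every library by rule. In each comparison the called members were named, or, where fewer than 3 were called, the 3 with the smallest p. The largest and smallest difference within a role, and called members of the other lists (up to 4), could also be named. Genes outside this rule, such as those that lay apart without overlap, were chosen after their values were seen. A count of 3 corresponds to 0.0434 to 0.0566 CPM, far below every member. The part of counting noise in the spread between libraries was not tested.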

Additional observations from a re-analysis of the deposited data

How the results depend on the processing

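Under every alternative run the median of the 42 genes kept its direction in the inhibitor comparison within each genotype, in both MAVS comparisons under 1 treatment and in the interaction. For the inhibitor averaged over genotypes it ran from -0.02 to 0.06. DESeq2 called 9 of the 42 for the inhibitor in reconstituted tumours (20.2% of all genes), 8 for MAVS in control tumours (4.62%) and 12 for the interaction (7.52%), where edgeR called 0; the cause was not tested. Leaving out 1 library at a time, edgeR called 0 to 17 for the inhibitor in reconstituted tumours, 0 to 17 for the interaction and 0 to 1 for MAVS under the inhibitor, the highest counts all without reconstituted inhibitor library 3 (31.0%, 21.9% and 15.4% of all genes). The median for MAVS in control tumours ran from 0.16, without reconstituted control library 1, to 0.37, without reconstituted control library 3. With a replicate block edgeR called 0 of the 42 in all 7 comparisons, at medians of 0.20, -0.19, 0.29 and -0.36 for the inhibitor in knockout and in reconstituted tumours, MAVS in control tumours and the interaction. Libraries of different groups with the same number correlated at -0.113 to 0.308 (18 pairs, median 0.088). Those with other numbers correlated at -0.367 to 0.341 (36 pairs, median -0.053), and 6 of 12 libraries correlated best with their own number. These values do not settle whether the numbers pair the samples. The main fit used no pairing because the labels name no shared litter, batch or day. With 3 libraries per group, the members' mean log2 CPM had a pooled SD of 0.12 within groups.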
